A study of Mus musculus with 8 samples.

Results

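The 10 genes described here build and supply the MHC class I molecule of the mouse. H2-K1 and H2-D1 encode its heavy chains and B2m its light chain. Tap1, Tap2 and Tapbp bring peptides into the endoplasmic reticulum and load them, Psmb8, Psmb9 and Psmb10 encode the catalytic subunits of the immunoproteasome, and Nlrc5 encodes the transactivator of class I genes. They were taken from the deposited tables by symbol, a rule that uses no measured value, though earlier results of these data were known. All 10 were found, of 23469 gene symbols in both tables.

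Nearly every nucleated cell shows peptides of its own cytosolic proteins on class I molecules to CD8 T cells. The proteasome cuts proteins into peptides, and in lymphocytes and in cells exposed to interferon gamma it carries immunoproteasome subunits in place of the constitutive subunits PSMB5, PSMB6 and PSMB7. NLRC5 acts at class I promoters through the SXY module, which is bound by RFX, CREB or ATF and NF-Y proteins and is shared with MHC class II promoters. IRF8, the factor targeted in this study, is an interferon regulatory factor that can bind interferon-response and ETS-IRF elements.

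Expression was measured by RNA sequencing of germinal centre (GC) B cells, the antigen-activated B cells in which antibody genes are mutated and selected. All mice were C57BL/6 and immunized with NP-KLH, a carrier protein that bears a hapten. Ctrl mice were Irf8+/+ and Irf8 cKO mice Irf8flox/flox, and both carried the same heterozygous Cre allele, which is active in B lineage cells. B220+ FAShigh GL7high cells were sorted at day 13. Experiments 1 and 2 each gave 1 Ctrl and 1 Irf8 cKO library (n = 2 per group), and the labels do not say whether these came from separate or pooled animals. The p-values therefore measure only the spread between these samples, which may be technical. As deposited, that spread is taken from genes of similar level and not from a gene's own values. The series holds 8 samples in all, and the 4 samples of cultured B cells were not analysed here.

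The deposited unit is RPKM, read density per kilobase of transcript relative to all mapped reads. Totals estimated from the spacing of low values ran from 62.7 M to 75.5 M reads. Of these 7.07% to 12.7% fell in annotated exons, the least in cKO-labelled library 2. This share leaves out Rn45s and entries without a matched transcript length. That library also had the fewest genes at 1 RPKM or more, 4845 against 6171 to 6566 in the other 3, and the highest value of the 45S ribosomal RNA precursor Rn45s, 16716 against 5887 to 9085 RPKM. All 12 GC B cell markers were detected in every library, and of these 1 passed the test described below, as lower, with a median log2 ratio of -0.56 over the list as deposited and -0.07 after scaling. It was Ms4a1, the gene of CD20, a surface protein of B cells, at 96.4 and 67.6 RPKM in Ctrl against 49.0 and 23.4 in the cKO-labelled libraries (log2 ratio -1.23, limma adjusted p = 0.0356). After scaling its ratio was -0.72 (adjusted p = 0.397), and the groups did not overlap in either scaling. Of all tested genes, 44.7% lay wholly below Ctrl as deposited and 15.4% after scaling. The 8 T cell markers summed to 2.80 to 5.11 RPKM, nearly all of it from Lck, at 3.66 and 3.21 in Ctrl against 5.06 and 2.69. The other 7 lay between 0 and 0.0938 RPKM: Cd3g and Cd8b1 were listed at 0 in all 4 libraries, while Cd3d and Cd28 were higher in both cKO-labelled libraries than in either Ctrl. NK cell markers summed to 0.0726 to 0.0933 RPKM, dendritic cell markers to 0.990 to 1.78, stromal markers to 2.36 to 4.10, erythroid and platelet markers to 1.63 to 2.35 and plasma cell markers to 19.6 to 43.1. In these lists only 1 T cell, 1 dendritic cell, 1 stromal and 3 plasma cell genes were tested, and none passed. No NK cell or erythroid and platelet gene reached the filter (0 tested), so the test cannot compare those. Myeloid markers are given beside B2m. Irf8 reached 14.5 and 14.9 RPKM in Ctrl libraries 1 and 2, compared with 20.6 and 11.6 in cKO-labelled libraries 1 and 2. This value covers all exons and so does not check the deletion. It was below Ctrl in cKO-labelled library 2 alone, and after scaling it was above Ctrl in both (19.3 and 17.7 against 11.3 and 13.1). The libraries are therefore called cKO-labelled here, and every direction is that of the labels.

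Promoter sequences are shown first, because the members differ in the elements through which interferon, NF-kB and NLRC5 are known to act. RefSeq promoter windows (build GRCm38.p6, 250 bases before to 50 bases after a transcript start) matched the deposited start of 8 of the 10 genes. Tap2 and Nlrc5 had none. The bases before the B2m start (chr2:122147437-122147685, plus strand) hold several of the searched motifs, marked by capitals. In order they are the core of an interferon-stimulated response element (GAAA, NN, GAAA), the classical kappa B site read on the other strand, TGACG, the core of the X2 box of the SXY module, and CCAAT, its Y box, also read on the other strand.
B2m: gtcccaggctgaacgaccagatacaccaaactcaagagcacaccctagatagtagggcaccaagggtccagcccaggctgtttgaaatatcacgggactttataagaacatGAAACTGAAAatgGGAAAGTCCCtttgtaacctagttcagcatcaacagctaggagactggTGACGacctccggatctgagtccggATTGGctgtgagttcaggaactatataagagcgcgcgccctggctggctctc

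The heavy chain promoters carry the symmetric form of the kappa B site, printed in capitals below, and the X2 core TGACG. For these and the remaining genes only 30 bases around a motif are shown, since GENCODE models of some of them begin further upstream. The kappa B stretches are chr17:34000438-34000467 (minus strand) for H2-K1 and chr17:35262914-35262943 (plus strand) for H2-D1. The X2 stretches are chr17:34000371-34000400 (minus strand) and chr17:35262981-35263010 (plus strand). Capitals mark the motif.
H2-K1 kappa B: cccagggctGGGGATTCCCCatctccacag
H2-D1 kappa B: cccagggctGGGGATTCCCCatctcctcag
H2-K1 X2: tccggacactgtTGACGcgcagtcagctct
H2-D1 X2: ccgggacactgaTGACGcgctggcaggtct
The whole windows of both genes were identical at 90.5% of 253 aligned bases.

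Psmb9 and Tap1 are read in opposite directions from starts 225 bases apart, so that their promoters are the same stretch of DNA. It holds 1 CCAAT and 1 TGACG, at chr17:34187322-34187351 and chr17:34187458-34187487 (plus strand, in the direction of Tap1). They begin at -222 and -86 from the Tap1 start. In B2m TGACG comes first, at -78, with CCAAT close after it at -53. The Y box and X2 labels below therefore name letters, and not a placed SXY module. The Psmb8 window holds neither CCAAT nor TGACG. It has instead a half-site of interferon regulatory factors next to an ETS core (GAAA, NN, GGAA), read on the other strand at chr17:34197945-34197974, and TTCNNNGAA, the form of a gamma-activated site, at chr17:34198088-34198117. Capitals again mark the motifs.
Psmb9-Tap1 Y box: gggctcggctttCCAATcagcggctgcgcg
Psmb9-Tap1 X2: cccagagacaggTGACGacagagggtcctg
Psmb8 IRF half-site: attTTCCAGTTTCtataaaatgatgctcat
Psmb8 gamma-activated site: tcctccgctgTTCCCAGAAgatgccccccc

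Both strands of all 32851 mouse windows were searched for each motif. The interferon-response core was found in 3.44% of them and, of the 8 windows here, in that of B2m. The half-site next to an ETS core was found in 2.80% and TTCNNNGAA in 8.30%, of the 8 in that of Psmb8 for both. The ETS-IRF composite element (GGAA, NN, GAAA) was found in 2.72% and in none of the 8. The classical kappa B site was found in 0.155% (here B2m) and the symmetric form in 0.0304% (here H2-K1 and H2-D1). TGACG was found in 20.8% of all windows and in those of H2-K1, H2-D1, B2m, Tap1 and Psmb9. CCAAT was found in 37.4%, and here in the same 5 genes and Tapbp. The Psmb10 window held none of the 8 motifs. These are matches of letters, and no binding was measured in this series.

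RPKM is given per length, so levels can be set side by side between genes. In Ctrl cells B2m was the most abundant of the 10, at 95.2 ± 45.1 RPKM (mean ± SD, n = 2 here and below). H2-K1 followed at 32.7 ± 0.603, Psmb9 at 30.3 ± 12.8, H2-D1 at 24.3 ± 1.502 and Psmb8 at 21.1 ± 4.28. The other 5 were far lower, from 4.29 ± 1.87 for Psmb10, through 4.07 ± 0.414 for Tapbp and 4.06 ± 0.643 for Tap1, to 1.34 ± 0.745 for Tap2 and 0.960 ± 0.369 for Nlrc5. B2m stood above every other member in each of the 4 libraries. In Ctrl cells the ranges of H2-K1 and Psmb9, of H2-D1 and Psmb8, of Psmb10, Tapbp and Tap1, and of Tap2 and Nlrc5 overlapped. In the cKO-labelled libraries Psmb8, at 7.83 ± 2.73 RPKM, lay apart below H2-D1 at 16.4 ± 3.89 and Psmb9 at 16.2 ± 1.79.

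**Figure D1:**
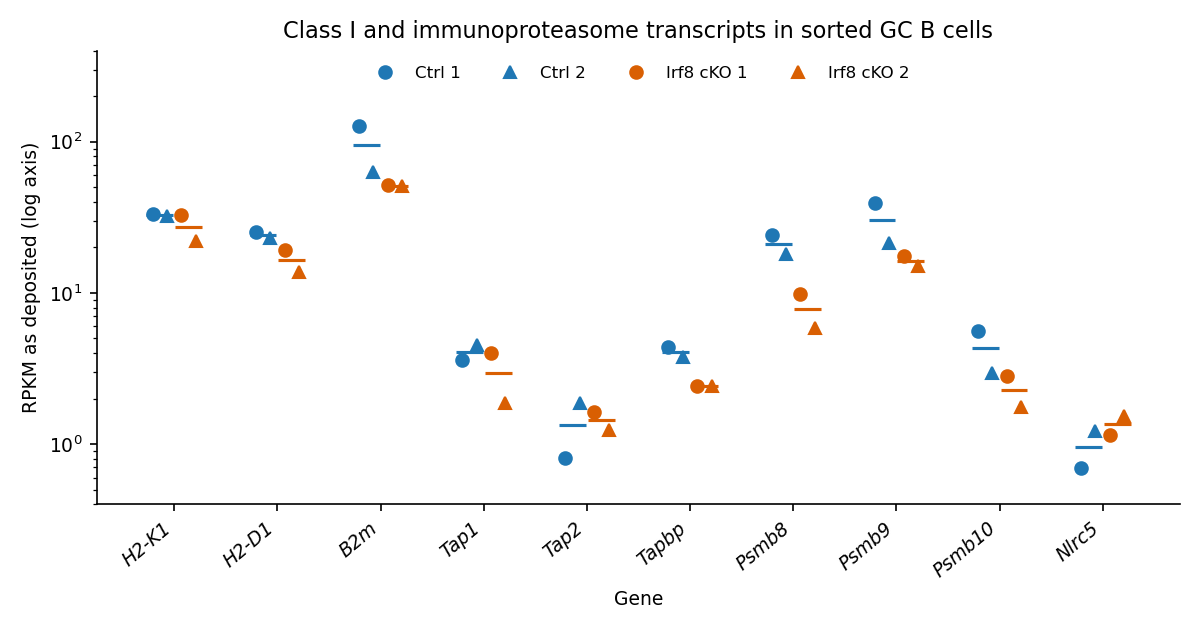
RPKM of the 10 genes in each of the 4 libraries on a log axis, with circles for experiment 1, triangles for experiment 2, blue for Ctrl, orange for the cKO-labelled libraries, and bars at the group means. The Irf8 cKO points lie below both Ctrl points for 6 of the 10 genes, and those of Psmb8 lie furthest below.

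Setting cKO-labelled against Ctrl libraries asks what loss of IRF8 in B cells does to GC B cell transcripts. Of the 10 genes Psmb8 alone passed the test: it fell to 37.2% of its Ctrl level as deposited, a call that was lost after scaling or without the experiment block. The other 9 did not pass. Ratios below are on the log2(RPKM + 1) scale, which understates the change of low genes, and come from limma with the experiment as a block and Benjamini-Hochberg adjustment at 0.05 over 6446 genes. With 1 lower gene of 10, the background was 1.09% of all tested genes called lower (70 genes). With 0 higher of 10 it was 0.0931% (6 genes), and at an unadjusted p under 0.05 there were also 0 higher members, against 4 lower (Psmb8, B2m, Psmb9 and Psmb10). Over all tested genes these were 17 higher and 1197 lower. In either direction 1.18% of tested genes were called.

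As deposited, all genes together were displaced, with a median log2 ratio of -0.35 (-0.18 in experiment 1 and -0.51 in experiment 2). The median over the 10 genes was -0.56. Each value is therefore also given after median-of-ratios scaling, which divides a library by its typical ratio to the mean library and brings the median over all genes to 0.0035. The median over the 10 genes was then -0.11, and none of them passed (background 0.0465% lower, 0.0155% higher and 0.0621% in either direction, with 3 genes lower and 1 higher). At an unadjusted p under 0.05, limma after scaling gave Psmb8 as lower and Nlrc5 as higher. Over all 6446 tested genes the same rule gave 295 lower and 383 higher.

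Both Irf8 cKO values lay below both Ctrl values for 6 of the 10 genes as deposited (H2-D1, B2m, Tapbp, Psmb8, Psmb9 and Psmb10), near the 44.7% of all tested genes that did so. For 0 of 10 they lay above, against 1.19%. After scaling 1 gene lay wholly below (Psmb8, background 15.4%) and 2 wholly above (H2-K1 and Nlrc5, background 15.7%). In bulk RNA, fewer cells of a type and less RNA per cell cannot be told apart.

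**Figure D2:**
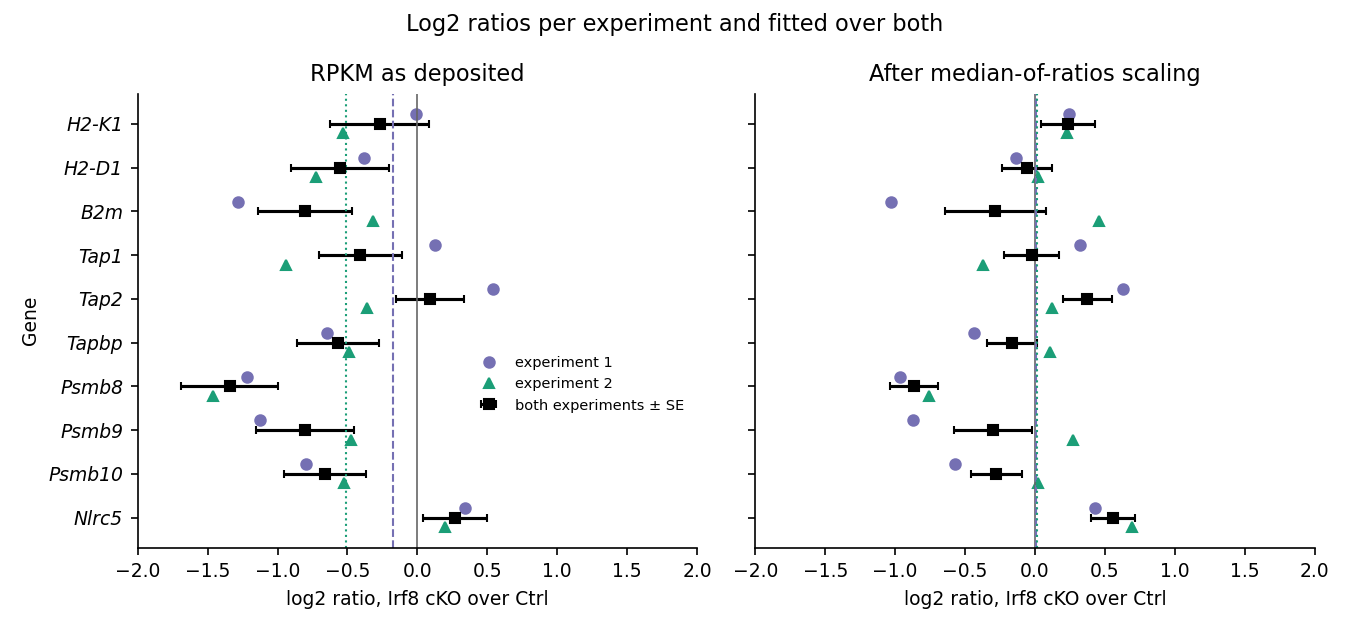
Log2 ratio of Irf8 cKO over Ctrl for each gene in experiment 1 (purple circles) and experiment 2 (green triangles) and in the fit of both (black squares ± SE), as deposited on the left and after scaling on the right, with the median of all genes in each experiment as a dashed and a dotted line. Psmb8 lies below 0 and Nlrc5 above 0 in all 4 comparisons, while B2m and Psmb9 after scaling lie on opposite sides of 0 in the 2 experiments.

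The proteasome subunits are taken first because Psmb8 is among them. Psmb8 (chromosome 17, 34198195 to 34201454, plus strand, mm10) encodes the chymotrypsin-like subunit LMP7, which takes the place of PSMB5. It measured 24.1 RPKM in Ctrl 1, 18.03 in Ctrl 2, 9.76 in cKO-labelled library 1 and 5.90 in cKO-labelled library 2. Both cKO-labelled values were below both Ctrl values, and the lowest of all was in cKO-labelled library 2. The log2 ratio was -1.34 ± 0.35 (SE; limma, adjusted p = 0.0175), the 14th lowest of 6446 genes. The experiments gave -1.22 (the first) and -1.46 (the second). After scaling the 4 values were 18.9, 15.9, 9.15 and 8.97 in the same order, still without overlap, and the ratio was -0.86 ± 0.17 (adjusted p = 0.218), the 22nd lowest. Without the block the adjusted p was 0.536 as deposited and 0.656 after scaling. An estimated 606 to 2849 reads stand behind each Psmb8 value. The summed myeloid markers were likewise lower in the cKO-labelled library of each experiment (77.5 against 25.5 RPKM in experiment 1 and 17.6 against 9.27 in experiment 2), and their part in the Psmb8 difference was not tested.

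Psmb9 (chromosome 17, 34182099 to 34187330, minus strand) encodes LMP2, the subunit that replaces PSMB6. It reached 39.4 and 21.2 RPKM in Ctrl libraries 1 and 2, compared with 17.5 and 15.0 in cKO-labelled libraries 1 and 2. Ctrl 1 stood apart from the other 3 libraries, which lay within 15.0 to 21.2. It had a log2 ratio of -0.80 ± 0.35 (adjusted p = 0.232). After scaling it was -0.87 in experiment 1 and 0.27 in experiment 2, together -0.30 ± 0.28 (adjusted p = 0.737). Psmb9 thus lay on opposite sides of 0 in the experiments after scaling.

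Psmb10 (chromosome 8, 105935728 to 105938392, minus strand) encodes MECL-1, the trypsin-like subunit that replaces PSMB7, and is the catalytic subunit encoded outside the MHC. It reached 5.61 and 2.97 RPKM in Ctrl libraries 1 and 2, compared with 2.80 and 1.75 in cKO-labelled libraries 1 and 2. Ctrl 2 and Irf8 cKO 1 differed by little, and the highest value was again in Ctrl 1. It had a log2 ratio of -0.66 ± 0.29 (adjusted p = 0.232), and after scaling -0.28 ± 0.18 (adjusted p = 0.638), where experiment 1 gave -0.57 and experiment 2 gave 0.02. As few as 145 estimated reads stand behind the lowest value.

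A ratio of 2 transcripts within a library does not depend on library scaling, so each immunoproteasome subunit was set against the constitutive subunit it replaces. Psmb8 was 3.38 and 4.14 times as abundant as Psmb5 in Ctrl 1 and 2, and 1.39 and 1.91 times as abundant in cKO-labelled libraries 1 and 2. Both Irf8 cKO ratios lay below both Ctrl ratios, by 1.28 in experiment 1 and 1.11 in experiment 2 on the log2 scale. The mean log2 difference was -1.20, and the exact permutation test over the 4 libraries (2-sided) gave p = 0.333, the smallest it can give with 2 against 2. Psmb5 itself measured 7.13 and 4.36 RPKM in Ctrl against 7.03 and 3.09 in the cKO-labelled libraries, and its groups overlapped.

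The other pairs did not separate the groups. Psmb9 was 4.75 and 2.67 times as abundant as Psmb6 in Ctrl 1 and 2 against 2.48 and 4.03 times in the cKO-labelled libraries (log2 difference -0.17, exact permutation p = 0.667). Psmb10 to Psmb7 was 0.389 and 0.310 against 0.342 and 0.426 (log2 difference 0.14, exact permutation p = 0.667). The Psmb9 pair differed by -0.94 in experiment 1 and 0.59 in experiment 2, and the Psmb10 pair by -0.18 and 0.46. Psmb6 measured 8.29 and 7.96 RPKM in Ctrl against 7.06 and 3.72, and Psmb7 14.4 and 9.58 against 8.18 and 4.12. Adjusted over the 5 pairs examined, including the 2 of B2m below, every p was at or above the unadjusted 0.333, a value this design cannot pass.

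**Figure D3:**
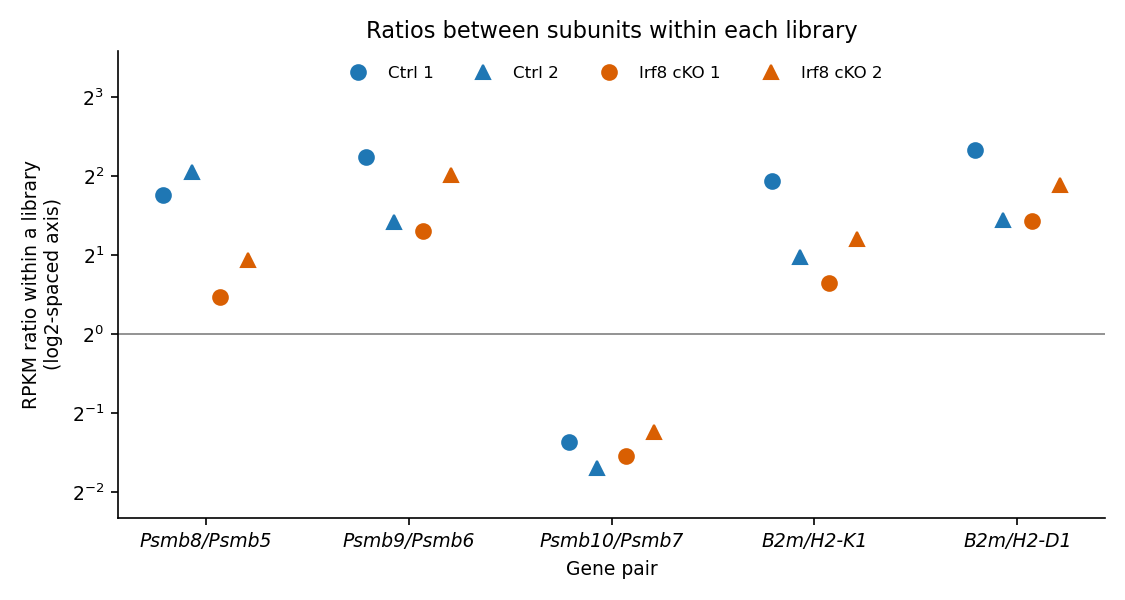
Ratio of 2 transcripts within each library on a log2-spaced axis, for the 3 immunoproteasome subunits over their constitutive counterparts and for B2m over each heavy chain. The Irf8 cKO points lie below both Ctrl points for Psmb8 over Psmb5 and are interleaved with them for the other 4 pairs.

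Other parts of the proteasome did not pass the test. Of the 3 constitutive counterparts, 0 passed, with a median log2 ratio of -0.57 as deposited and -0.12 after scaling. All 11 non-exchanged subunits of the 20S core were tested and 0 passed, with medians of -0.61 and -0.16. Psma2, an alpha ring subunit, measured 25.6 and 13.5 RPKM in Ctrl against 15.0 and 6.08 in the cKO-labelled libraries, and Psma7 20.5 and 15.4 against 12.7 and 8.83. The 9 listed activator and assembly genes gave 8 tested and 0 past the threshold, with medians of -0.54 and -0.12. Among these Psme1, a subunit of the PA28 activator that is induced with the immunoproteasome, measured 38.0 and 29.6 RPKM against 23.2 and 11.1. Before scaling its log2 ratio was -1.02 (adjusted p = 0.126), and scaled values gave -0.52 (adjusted p = 0.4001). Pomp, the assembly chaperone, measured 35.98 and 24.05 against 26.3 and 13.3, and Psme2, the other PA28 subunit of this complex, 12.4 and 11.0 against 8.54 and 6.53. The medians of the 3 proteasome lists lay between -0.54 and -0.61 as deposited, against -0.35 over all genes. After scaling they lay between -0.12 and -0.16, against 0.0035. Many of these transcripts are short, and as deposited the median was -0.46 for genes up to 1000 bases and -0.45 for those of 1000 to 1500. The part of length in these medians was not tested.

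Neither heavy chain passed the test. H2-K1 (chromosome 17, 33996012 to 34000333, minus strand) reached 33.1 and 32.2 RPKM in Ctrl libraries 1 and 2, compared with 32.9 and 21.96 in cKO-labelled libraries 1 and 2. Only Irf8 cKO 2 stood apart, as the lowest. The log2 ratio was -0.27 ± 0.35 (adjusted p = 0.591) and after scaling 0.23 ± 0.19 (adjusted p = 0.707), so its sign turned with the scaling. H2-D1 (chromosome 17, 35263094 to 35267497, plus strand) measured 25.3 and 23.2 RPKM against 19.2 and 13.7. Its groups did not overlap as deposited, and the log2 ratio was -0.55 ± 0.35 (adjusted p = 0.326). After scaling it was -0.06 ± 0.18 (adjusted p = 0.931), with overlapping groups.

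Heavy chain values carry some uncertainty from shared sequence. The H2-K1 and H2-D1 transcripts were identical at 91.6% of 1579 aligned bases, and H2-D1 and the non-classical H2-Q7 at 92.0% of 1480. Of all 50-base stretches of H2-K1, 8.79% also occur in transcripts of other genes, and of H2-D1 14.3%. The H2-D1 entry overlaps an entry named H2-L, which was listed at 0 in all 4 libraries. The labels do not state how the authors treated reads that match several genes.

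B2m (chromosome 2, 122147687 to 122153082, plus strand) encodes beta-2 microglobulin, the invariant light chain without which class I does not reach the surface. It measured 127.1 RPKM in Ctrl 1, 63.3 in Ctrl 2, and 51.6 and 50.6 in the cKO-labelled libraries. The groups did not overlap, but Ctrl 1 and Ctrl 2 lay further apart than Ctrl 2 and either cKO-labelled library. The log2 ratio was -0.80 ± 0.34 (adjusted p = 0.211), where experiment 1 gave -1.28 and experiment 2 gave -0.32. After scaling it was -1.03 and 0.46 in the experiments, together -0.28 ± 0.36 (adjusted p = 0.819), so that it lay on opposite sides of 0. B2m lies inside the span of Patl2, a gene of the opposite strand listed at 0.00558 and 0 RPKM in Ctrl and at 0.0322 and 0 in the cKO-labelled libraries.

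Ctrl 1, which held the highest values of B2m, Psmb8, Psmb9, Psmb10, Tapbp, H2-K1 and H2-D1 as deposited, also held the most myeloid transcripts. It also had the largest size factor used in scaling (1.28), and the share of all genes highest in it was not counted. After scaling B2m, Psmb8, Psmb9 and Psmb10 were still highest in Ctrl 1. Tapbp (3.67), H2-K1 (33.4) and H2-D1 (20.8) were then highest in cKO-labelled library 2, and H2-K1 was lowest in Ctrl 1 (25.9). The 11 myeloid markers summed to 77.5 RPKM in Ctrl 1, 17.6 in Ctrl 2, and 25.5 and 9.27 in cKO-labelled libraries 1 and 2. Of the 5 that were tested, 2 passed as lower as deposited, S100a8 and S100a9, with overlapping groups, and 0 passed after scaling (limma adjusted p = 0.322 and 0.233). C1qb was listed at 0 in all 4 libraries and Csf1r lay at 0.0608 to 0.0935 RPKM. The part of these cells in the values of the 10 genes was not tested. The heavy chains did not share the pattern of B2m: B2m to H2-K1 was 3.84 and 1.96 in Ctrl 1 and 2 against 1.57 and 2.30 in the cKO-labelled libraries (log2 difference -0.53, exact permutation p = 0.667). B2m to H2-D1 was 5.01 and 2.73 against 2.69 and 3.70 (log2 difference -0.23, exact permutation p = 0.667), with overlap in both pairs.

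Tap1 and Tap2 encode the paired chains of the transporter that moves peptides into the endoplasmic reticulum, and Tapbp encodes tapasin, which holds class I at the transporter. Tap1 (chromosome 17, 34187556 to 34197225, plus strand) reached 3.61 and 4.52 RPKM in Ctrl libraries 1 and 2, compared with 4.03 and 1.88 in cKO-labelled libraries 1 and 2. The first 3 of these values were close together and Irf8 cKO 2 was the lowest. Its log2 ratio was -0.41 ± 0.30 (adjusted p = 0.376) and after scaling -0.02 ± 0.20 (adjusted p = 0.976), where experiment 1 gave 0.32 and experiment 2 gave -0.37.

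Tap2 (chromosome 17, 34204479 to 34216321, plus strand) measured 0.813 and 1.87 RPKM in Ctrl against 1.63 and 1.23 in the cKO-labelled libraries. Both Irf8 cKO values lay between the Ctrl values. It had a log2 ratio of 0.09 ± 0.24 (adjusted p = 0.801) and after scaling 0.37 ± 0.17 (adjusted p = 0.501). Tapbp (chromosome 17, 33919478 to 33929290, plus strand) measured 4.37 and 3.78 RPKM against 2.42 and 2.41. Its groups did not overlap as deposited, with a log2 ratio of -0.57 ± 0.295 (adjusted p = 0.270). After scaling they overlapped, at -0.16 ± 0.18 (adjusted p = 0.786). Of the 50-base stretches of Tapbp 20.7% also occur in other genes' transcripts, and of Tap2 12.6%.

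The class I loading chaperones and trimming peptidases beside these genes gave 11 of 12 tested and 0 past the threshold, with a median log2 ratio of -0.47 as deposited and -0.14 after scaling. Calr, the chaperone calreticulin, measured 18.1 and 16.8 RPKM in Ctrl against 14.1 and 10.7 in the cKO-labelled libraries, and Pdia3, its partner ERp57, 15.9 and 14.2 against 11.3 and 6.91. For both genes the groups did not overlap as deposited, while those of the chaperone Canx did (18.4 and 11.7 against 12.8 and 6.36). As deposited 8 of the 11 tested genes lay wholly below Ctrl (background 44.7%), and after scaling 2 did (background 15.4%). After scaling the groups of Calr overlapped (log2 ratio 0.02) and those of Pdia3 did not (-0.22). Bcap31, which takes part in export of class I from the endoplasmic reticulum, measured 9.23 and 6.58 against 4.97 and 3.27, with a log2 ratio of -0.80 (adjusted p = 0.198) and -0.36 after scaling (adjusted p = 0.494).

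Nlrc5 (chromosome 8, 94472763 to 94527272, plus strand) was the lowest of the 10 in Ctrl and the one whose ratio was highest. It reached 0.699 and 1.22 RPKM in Ctrl libraries 1 and 2, compared with 1.15 and 1.54 in cKO-labelled libraries 1 and 2. Each Irf8 cKO value was above the Ctrl value of its own experiment, but Irf8 cKO 1 lay under Ctrl 2. The log2 ratio was 0.27 ± 0.23 (adjusted p = 0.440), where experiment 1 gave 0.34 and experiment 2 gave 0.20. After scaling the values were 0.547 and 1.07 in Ctrl against 1.08 and 2.35, the nearest of them apart by less than the spread within either group. The scaled ratio was 0.56 ± 0.16 (unadjusted p = 0.00801, adjusted p = 0.373), at rank 6356 of 6446 from the lowest. Nlrc5 thus did not pass in either scaling. Ctrl 1 lay below the filter of 1 RPKM in 2 libraries, so entry into the test needed a cKO-labelled value as well as Ctrl 2. No conclusion is drawn from its limma p-values or rank. An estimated 353 to 676 reads stand behind each value, and none of its 50-base stretches occurs in another gene's transcripts.

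After scaling, ratios were above 0 in both experiments for 3 of the 10 genes, H2-K1, Tap2 and Nlrc5 (background 30.3% of all tested genes), and below 0 in both for 1, Psmb8 (background 27.3%). As deposited 71.2% of all tested genes were below 0 in both experiments and 2.75% above.

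The authors' deposited table gives a log2 ratio and an unadjusted p from 1 library against 1 library in each experiment, on a scale displaced upward from the RPKM ratio by 0.205 in experiment 1 and 0.721 in experiment 2. In the authors' deposited table Psmb8 is at -1.10 (p = 0.00142) in experiment 1 and -0.891 (p = 0.0267) in experiment 2, and Nlrc5 at 0.929 (p = 0.0271) and 1.06 (p = 0.0132). They were the members of this set with p under 0.05 in both experiments in the authors' deposited table, where 0.481% of tested genes were lower and 0.372% higher by that rule (31 and 24 genes). In the authors' deposited table B2m is at -1.10 (p = 0.000541) in experiment 1 and 0.398 (p = 0.230) in experiment 2, and Psmb9 at -0.966 (p = 0.00433) and 0.216 (p = 0.582). Tap2 is at 1.21 (p = 0.0199) and 0.122 (p = 0.834) in the authors' deposited table, and its other members are at p from 0.0735 to 0.966.

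Of the 10 genes, 4 lie side by side in the MHC, in the order Psmb9, Tap1, Psmb8 and Tap2 over 34223 bases. Tap1 ends 969 bases before Psmb8 begins, and Psmb8 ends 3024 bases before Tap2. Along this stretch the scaled log2 ratios were -0.30, -0.02, -0.86 and 0.37, and those of the neighbours of Psmb8 lay nearer to 0 or above it. Differences between members were not tested. Psmb9 and Tap1, which share the 225-base promoter shown above, had log2 ratios as deposited of -1.13 and 0.13 in experiment 1 and of -0.48 and -0.94 in experiment 2. Some GENCODE models of Tap1 and Psmb9 overlap, and 12.5% of the 50-base stretches of Psmb9 also occur in a Tap1 transcript. Of Psmb8 5.83% occur in a read-through model named Gm20496.

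The libraries were amplified, and ratios over all genes varied with transcript length. The scaled median was -0.08 for 581 genes up to 1000 bases and 0.08 for 732 genes over 6000 bases. In experiment 1 these medians were -0.25 and 0.10, and in experiment 2 0.11 and 0.06. B2m, at 860 bases, is in the shortest class and Nlrc5, at 6945 bases, in the longest. Psmb8, at 1628 bases, falls in a class with a median of -0.04. With the trend on length taken off, the scaled log2 ratio was -0.82 for Psmb8 (adjusted p = 0.250), 0.48 for Nlrc5 (adjusted p = 0.470) and -0.21 for B2m.

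**Figure D4:**
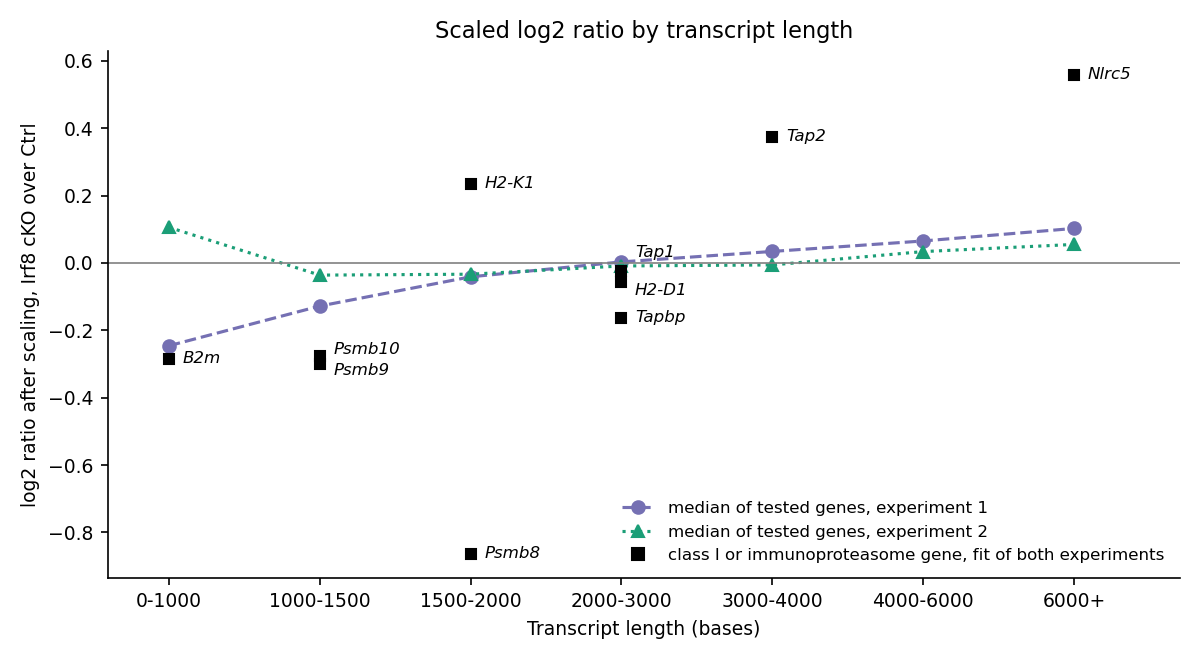
Log2 ratio of Irf8 cKO over Ctrl after scaling against transcript length class in bases, with medians of all tested genes in experiment 1 (purple circles) and experiment 2 (green triangles) and the 10 genes as black squares. Psmb8, at -0.86, lies far below the medians of its length class, and Nlrc5, at 0.56, above those of the longest class.

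Regulators that feed these promoters did not pass the test. Of 9 listed genes of the SXY enhanceosome with Ciita, 8 were tested and 0 passed, with a median log2 ratio of -0.41 as deposited and -0.02 after scaling. Rfx5, the DNA-binding RFX subunit, measured 4.24 and 4.80 RPKM in Ctrl against 4.09 and 2.27 in the cKO-labelled libraries. Ciita, the class II counterpart of Nlrc5, measured 6.19 and 8.06 against 5.44 and 4.97, with a log2 ratio of -0.38 as deposited and 0.07 after scaling. Ciita was more abundant than Nlrc5 in each library.

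Of 14 listed genes of interferon and NF-kB input, 12 were tested and 0 passed, with medians of -0.35 and -0.0032, close to those of all genes. Ifngr1, the ligand-binding chain of the interferon gamma receptor, measured 5.83 and 5.89 RPKM in Ctrl against 2.80 and 2.06 in the cKO-labelled libraries. Both experiments showed the difference, with scaled ratios of -0.62 and -0.58. The groups did not overlap in either scaling (background of genes wholly below Ctrl 44.7% as deposited and 15.4% after scaling). Its log2 ratio was -1.01 (adjusted p = 0.0611) and after scaling -0.60 (adjusted p = 0.299). Irf2 measured 7.27 and 5.42 against 5.58 and 4.09, with overlap.

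Non-classical and class I-like genes were mostly low. Of 23 listed, 22 are in the tables, 8 were tested and 0 passed, with a median log2 ratio of -0.08 as deposited and 0.20 after scaling. H2-T23, which encodes Qa-1, measured 5.02 and 5.79 RPKM in Ctrl against 4.15 and 2.80 in the cKO-labelled libraries, and H2-M3 3.73 and 4.47 against 2.60 and 1.65. H2-Q4 measured 1.81 and 2.04 against 1.90 and 2.998. Genes of this family can share reads: the H2-K1 transcript was identical to that of H2-Q7 at 89.6% of 1471 aligned bases and to that of H2-T23 at 84.1% of 1355. H2-M3 and H2-Q4 were not aligned.

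MHC class II genes were set beside class I, since both are read through the SXY module. Of 9 tested, Cd74, the invariant chain, passed as lower as deposited, at 881.7 and 781.1 RPKM in Ctrl against 508.5 and 263.2 in the cKO-labelled libraries (log2 ratio -1.18, adjusted p = 0.000186). After scaling its ratio was -0.66 (adjusted p = 0.666). H2-Aa, a class II chain, lay close to the threshold as deposited (log2 ratio -0.97, limma adjusted p = 0.0506) but not after scaling (-0.45, adjusted p = 0.687). As deposited 9 of the 9 genes lay wholly below Ctrl (background 44.7%), and after scaling 3 did (background 15.4%). The median of the 9 was -0.76 as deposited and -0.26 after scaling, against -0.56 and -0.11 for the 10 genes of class I presentation. The difference between the lists was not tested.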

How the data were processed

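Sorted GC B cells gave 2 Ctrl and 2 Irf8 cKO libraries. Per the labels' protocols, RNA was amplified with Ovation RNA-Seq System v2 and made into Nextera XT libraries. The authors deposited 1 table per experiment with RPKM, a log2 ratio and a p-value per RefSeq gene, made in Wardrobe per the series design text. For these tables the aligner is not named in the sources used here. TopHat2 2.0, Cuffdiff, Cufflinks 2.2 and DESeq are listed in the submitters' processing notes without a role. Deposited coordinates are those of mm10. Each table has 23471 entries, and 2 symbols with several entries were summed.

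The values were fitted as log2(RPKM + 1) in R 4.3.3 with limma 3.58.1 (lmFit, eBayes with trend, 2-sided, experiment as block, 1 residual degree of freedom) for genes at 1 RPKM or above in 2 or more libraries. As deposited, the prior degrees of freedom were infinite, so each SE and p rests on genes of similar level and not on a gene's own spread. After scaling (size factors 1.28 and 1.14 for Ctrl, 1.07 and 0.658 for Irf8 cKO) they were 6.44. Same-numbered libraries are of 1 experiment by label, and their deviations correlated at 0.377 as deposited and 0.331 after scaling. Depth was estimated from low RPKM times GENCODE transcript length. Between 58.0% and 67.7% of low values were whole numbers of reads to within 0.1, too few for a count model. Lengths were matched for 99.0% of tested genes. The fit was also run on simulated data, with the same noise at every level and no displacement of whole libraries. That run therefore does not cover the displacement between the libraries here. Python 3.11.15, pandas 2.3.3 and Biopython 1.88 were used for tables and alignments.

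The members and lists (constitutive counterparts, 20S core, activators and assembly, loading and trimming, non-classical class I, SXY and CIITA, interferon and NF-kB, MHC class II, and cell markers) were chosen with earlier results of these data known. Named genes are all members, their counterparts, listed genes past the threshold and up to 6 of the most abundant of each other list. Not all of the most abundant are named. Lnpep (scaled log2 ratio 0.0039) and Atf1 (-0.11) were left out, though more abundant than the named Bcap31 and Rfx5. Bcap31 (-0.80) and Ifngr1 (-1.01) had the lowest log2 ratios of their lists as deposited, so the examples do not stand for their lists. A gene of the interferon list that this rule names is not reported here. Alternatives were other pseudocounts, filters, scaling, no block, no variance trend, a length correction and leaving out each library.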

Additional observations from a re-analysis of the deposited data

How the results depend on the processing

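As deposited, 70 genes were called lower and 6 higher, and these counts moved with most settings. Median-of-ratios scaling left 3 lower and 1 higher, and no filter left 0 and 0 (1694 and 292 at an unadjusted p under 0.05 in limma). Requiring 1 RPKM in all 4 libraries gave 10 and 0 (5 higher unadjusted), a fit without the experiment block 19 and 2 as deposited and 4 and 2 after scaling, no variance trend 277 lower, and the length correction 0 and 0 (280 and 344 unadjusted). Leaving out single libraries, as deposited or after scaling, gave 0 to 1450 lower and 0 to 9 higher genes, with 1450 and 9 without Irf8 cKO 1 and 0 and 0 without Ctrl 1 (31 and 7 unadjusted), both as deposited. Of the 10 class I and immunoproteasome genes, 1 was called lower. That count was 0 after scaling, with no filter, without the block in either scaling and with the length correction, 3 without the variance trend (B2m and Psmb9 in addition) and 0 to 2 with single libraries left out (Psmb8 and Psmb10 without Irf8 cKO 1). None was called higher under any setting. The related lists had 1 lower gene, against 0 after scaling, with no filter, without the block in either scaling and with the length correction, 2 at pseudocounts of 0.1 and 0.5, 8 without the variance trend and 0 to 14 with single libraries left out.

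Psmb8 stayed below 0 in all 17 alternatives, from -1.66 to -0.75, and lost the threshold in 12, among them those without Ctrl 1 (-1.14), Ctrl 2 (-1.54) or Irf8 cKO 2 (-1.02), with adjusted p from 7.97e-05 to 0.99993 over all. Nlrc5 stayed above 0 in all 16 of its alternatives, from 0.08 to 0.90, with none past the threshold. The cause of these shifts was not tested. H2-K1 turned to 0.23 after scaling, with or without the block, and to 0.28 with the length correction. With single libraries left out as deposited, log2 ratios crossed 0 for H2-K1 (-0.55 to 0.011) and Tap2 (-0.24 to 0.42) and for no other member. Over these fits and the same fits after scaling together, the ranges that hold 0 were those of H2-K1 (-0.55 to 0.30), H2-D1 (-0.78 to 0.044), B2m (-1.30 to 0.13), Tap1 (-0.81 to 0.16), Tap2 (-0.24 to 0.72), Tapbp (-0.65 to 0.094), Psmb9 (-1.23 to 0.046) and Psmb10 (-1.03 to 0.014). The Psmb8 to Psmb5 difference kept its sign throughout (-1.43 to -0.97), while that of Psmb9 to Psmb6 ran from -0.59 to 0.24. Fits that leave out a library have no block and assume that a lone sample varies like the other group, and Tap2 and Nlrc5 drop out when 1 RPKM is required in all libraries. Depth limits the low genes most, with 145 estimated reads for Psmb10 in Irf8 cKO 2.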

Other observations

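Some further ratios within a library were chosen after the values had been seen and are given as a description. Psmb8 to Psmb9 was 0.611 and 0.849 in Ctrl 1 and 2 and 0.558 and 0.394 in cKO-labelled libraries 1 and 2, so that the groups did not overlap. Psmb8 to Tap1, its neighbour upstream, was 6.67 and 3.99 against 2.42 and 3.14, also without overlap. Psmb8 to Psmb7, the counterpart of Psmb10, was 1.67 and 1.88 against 1.19 and 1.43, without overlap. That log2 difference was -0.44, smaller than the -1.20 of Psmb8 to Psmb5, so its size depends on the gene set below Psmb8. Psmb9 to Tap1, the pair that shares a promoter, was 10.9 and 4.70 against 4.34 and 7.97, with overlap. H2-K1 to H2-D1 was 1.31 and 1.39 in Ctrl and 1.72 and 1.61 in the cKO-labelled libraries, a log2 difference of 0.30 that was 0.39 in experiment 1 and 0.21 in experiment 2. Psmb8 to Nlrc5 went from 34.5 and 14.8 in Ctrl to 8.46 and 3.82, a log2 difference of -1.99 with nearly the same size in both experiments (-2.03 and -1.95).

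Ifnar2, a chain of the type I interferon receptor outside the naming rule and also chosen after its values were seen, was at 0.645 and 0.367 RPKM in Ctrl, compared with 1.28 and 1.26 in the cKO-labelled libraries. Its log2 ratio was 0.60 as deposited (limma adjusted p = 0.141) and 0.84 after scaling (adjusted p = 0.233), with 0.55 and 1.14 in experiments 1 and 2. Ifnar2 reached the filter of 1 RPKM in 2 libraries through the cKO-labelled libraries alone. Its entry into the test thus depended on being high in that group, and no conclusion is drawn from its p-values. Its Ctrl values rest on an estimated 97 and 48 reads. The other chain, Ifnar1, lay below the filter at 0.959 and 0.676 against 0.815 and 0.484 RPKM.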
